A study of Homo sapiens with 15 samples.

Results

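The question was which genes set apart MCF-10A cells that overexpressed ΔNp63α from MCF-10A cells that overexpressed TAp63γ. The members are the 3 arrays labelled as overexpression of ΔNp63α and the 3 labelled as overexpression of TAp63γ, 6 of the 15 arrays of the study, tested directly against each other. All 19064 probe sets with 1 gene symbol, standing for 11963 genes, were tested. MCF-10A is an established, immortalized and non-tumorigenic line of human mammary epithelial cells, and RNA was taken 48 hours after infection with a retrovirus or an adenovirus carrying the construct. Which virus carried which construct is not stated, nor the expression level that either construct reached. The 3 overexpression vector arrays, of MCF-10A cells infected with a control construct, were left out of the test and are given as the background level. All 9 arrays share the line and the time point. The study also held 6 knockdown arrays, which were not used in the test. The labels call the replicates biological without saying that they were separate infections, so p-values measure only the spread between these samples, which may be technical. p63 transcripts were not analysed here, and the overexpression was therefore not checked at the RNA level.

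The transcription factor p63, a relative of p53, is needed by basal cells of squamous and glandular epithelia. Transcription from alternative starts gives TA isoforms, which carry an N-terminal transactivation domain like that of p53, and ΔN isoforms, which lack it and are the main form in basal cells. Alternative splicing gives different C-terminal ends, and the α end carries a sterile alpha motif and an inhibitory domain that the γ end lacks. ΔNp63α and TAp63γ bind DNA through the same domain but differ at both ends, so what belongs to the N-terminus and what to the C-terminus cannot be told apart here. TA isoforms are known for activating genes of the p53 response, and ΔNp63α is known for maintaining basal cell identity and for opposing p53 family members at shared sites.

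Levels are log2 expression values, so a difference of 1 is a doubling. A difference is the mean of the ΔNp63α arrays minus the mean of the TAp63γ arrays, given ± SE with n = 3 arrays per group. A gene is said to be higher or lower only where the moderated test of limma gave an adjusted p below 0.05 over all probe sets, and a gene for which it did not is given by its values. A level counts as not shown to be above background where it lay below the 20th percentile of its array on every array of a group. Over all probe sets, arrays correlated at 0.9919 to 0.9979 within ΔNp63α and at 0.9944 to 0.9976 within TAp63γ, and arrays of different isoforms at 0.9601 to 0.9812. Replicate 3 of ΔNp63α stood somewhat apart, with 0.9919 and 0.993 to its replicates, and had the widest gap between the 3′ and 5′ actin control probe sets of the 6 arrays, 0.231, against 0.123 and 0.134 on the other ΔNp63α arrays and 0.00542, 0.136 and 0.0898 on the TAp63γ arrays. Without it 3580 genes were called, against 3711 with it, and 3328 of the 3711 calls were kept.

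The basal markers of the cell line were among its most abundant transcripts. KRT5, a keratin of basal cells, read 13.42, 13.36 and 13.03 with ΔNp63α, against 13.99, 13.78 and 13.85 with TAp63γ, and S100A2, a calcium-binding protein of basal cells, read 14.68, 14.74 and 14.72 with ΔNp63α, against 14.66, 14.72 and 14.70 with TAp63γ. The summed level of 16 basal markers was 16.3 to 16.39 with ΔNp63α and 16.45 to 16.56 with TAp63γ. However, 4 of the 16 were higher and 3 lower with ΔNp63α (43.75% called, beside 31.0% of all genes). Without replicate 1 or 2 of ΔNp63α or replicate 2 or 3 of TAp63γ 2 were higher. The summed level of 23 luminal markers was 14.15 to 14.28 with ΔNp63α and 14.65 to 14.74 with TAp63γ, with 4 of the 23 below background in both groups. That of 13 fibroblast markers was 10.21 to 10.33 with ΔNp63α and 10.57 to 10.61 with TAp63γ, with 3 below background in both. For 9 immune markers it was 9.499 to 9.589 with ΔNp63α and 9.467 to 9.532 with TAp63γ, with 0 of the 9 called. For 10 endothelial and adipocyte markers it was 8.909 to 8.958 with ΔNp63α and 8.834 to 8.92 with TAp63γ. The basal, luminal and fibroblast sums did not overlap between the isoforms and were lower with ΔNp63α. Sums weigh abundant members most, and the median differences of these lists were 0.09, -0.05 and 0.02, beside 0.02 over all genes. Of the luminal markers 6 were lower and 1 higher (30.4% called), and of the fibroblast markers 3 and 1 (30.8%), beside 31.0% of all genes. The part of these markers in the results below was not tested.

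Of the 11963 genes, 3711 (31.0%) differed between the isoforms, 1815 (15.2%) higher and 1896 (15.8%) lower with ΔNp63α. At least 2-fold differences were called for 626 genes (5.23%), 350 of them higher and 276 lower with ΔNp63α. Differences of at least 4-fold were called for 29 genes higher and 42 lower. The 3 ΔNp63α arrays did not overlap with the 3 TAp63γ arrays for 5484 genes (45.8%). Of 1468 called genes with more than 1 probe set, 957 had another probe set called in the same direction and 21 had one called in the opposite direction. Each isoform was also set against the vector in a fit of the 9 arrays: 2745 genes (22.9%) were called with ΔNp63α and 4691 (39.2%) with TAp63γ. These 2 comparisons share the vector arrays, so their values are given side by side only. In RNA from whole cultures, fewer cells with a transcript and less of it per cell cannot be told apart. The count of called genes depended on replicate 3 of TAp63γ more than on any other array left out: without it 2429 genes were called, 1242 higher and 1187 lower.

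**Figure D1:**
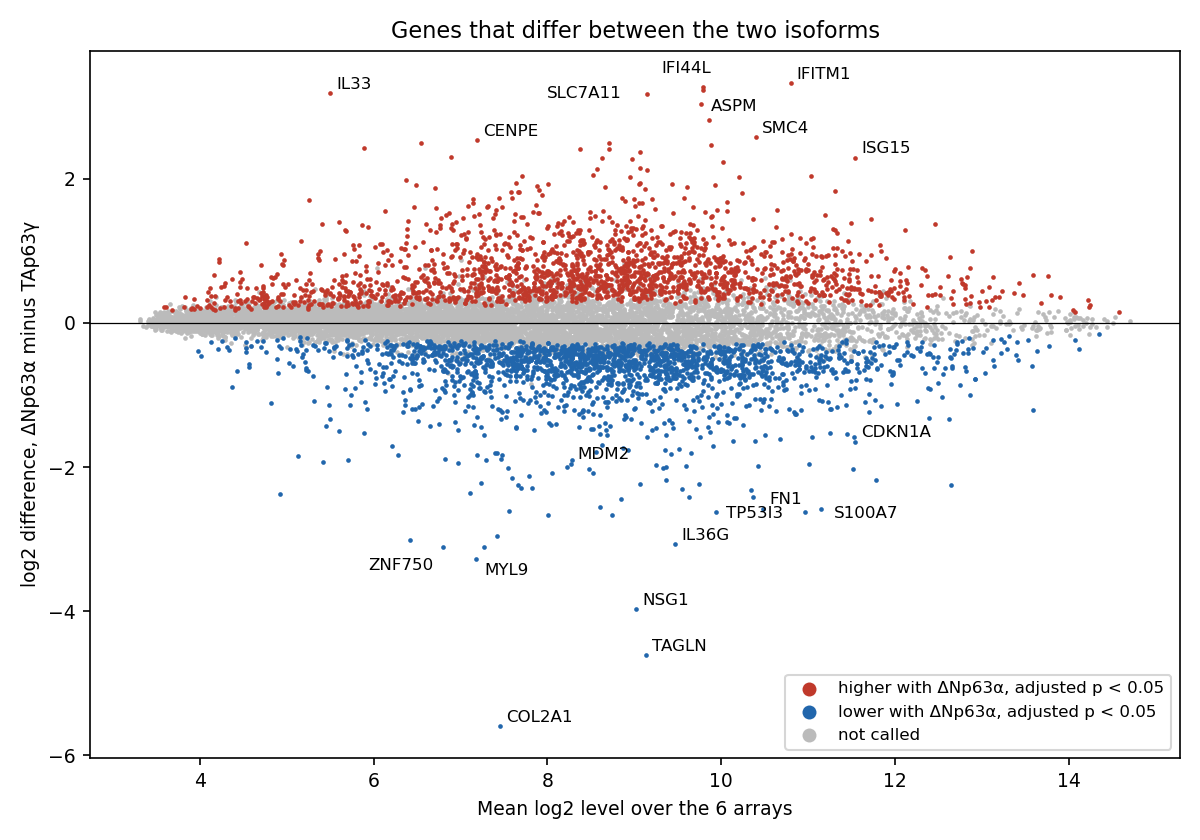
Difference between the isoforms (ΔNp63α minus TAp63γ, log2) against the mean log2 level over the 6 arrays for each of 11963 genes, coloured by the call. The 1815 genes higher with ΔNp63α reach 3.33 at IFITM1, and the 1896 lower genes reach -5.59 at COL2A1.

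Interferon-induced genes held the largest differences in favour of ΔNp63α. These genes are switched on when cells sense viral nucleic acid or receive interferon, through STAT and IRF factors that bind the interferon-stimulated response element. Of 43 measured members of the list, 35 were higher and 0 lower with ΔNp63α (81.4% called, beside 31.0% of all genes). Their median difference was 0.90, beside 0.02 over all genes. Both isoforms lay above the vector: the median difference from the vector was 2.61 with ΔNp63α, where 43 of 43 were called higher, and 1.47 with TAp63γ, where 39 of 43 were. The virus type per group is not given, and its part in these levels was not tested. Without replicate 3 of ΔNp63α 36 of the 43 were higher.

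The following promoter stretches show the element in interferon genes with large differences and in GBP1, a member of the list that did not pass the test and was chosen after its values were seen. GBP1, a guanylate-binding GTPase, differed by 0.06 ± 0.27 (SE, n = 3 each, adjusted p = 0.892). Sequences are from RefSeq on GRCh38.p14, 5′ to 3′ on the gene's strand and within 250 bases before the annotated start. Capitals mark the core searched for, GAAA followed by any 2 bases and GAAA, on either strand.
IFITM1 (chr11:313920-314039, plus strand): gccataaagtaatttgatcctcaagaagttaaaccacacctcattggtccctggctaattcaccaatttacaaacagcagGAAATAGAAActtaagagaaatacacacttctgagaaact
IFI44L (chr1:78620254-78620389, plus strand): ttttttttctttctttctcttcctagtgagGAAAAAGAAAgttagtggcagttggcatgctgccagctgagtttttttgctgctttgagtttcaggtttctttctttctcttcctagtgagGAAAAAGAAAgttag
IFIT1 (chr10:89392477-89392596, plus strand): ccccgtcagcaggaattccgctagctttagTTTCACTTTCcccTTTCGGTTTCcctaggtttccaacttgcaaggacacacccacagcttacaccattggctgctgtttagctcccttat
ISG15 (chr1:1013354-1013473, plus strand): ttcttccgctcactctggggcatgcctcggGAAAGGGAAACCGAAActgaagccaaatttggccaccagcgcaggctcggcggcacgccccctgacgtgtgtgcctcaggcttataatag
GBP1 (chr1:89065246-89065365, minus strand): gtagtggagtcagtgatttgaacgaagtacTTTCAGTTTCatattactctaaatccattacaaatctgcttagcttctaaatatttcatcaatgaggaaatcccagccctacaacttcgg

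The core was present in 21 of 34 interferon list members with a promoter window (61.8%), and in 996 of the 27305 genes with a window (3.65%). Windows ran from 250 bases before to 50 after the first start listed for a gene. Among members higher with ΔNp63α, 18 of 28 windows (64.3%) held it, and among members that did not pass the test, 3 of 6 (50%). A match is a description of the sequence and not evidence of binding.

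IFITM1, a membrane protein that blocks viral entry, had the largest difference of all genes higher with ΔNp63α. It read 12.57, 12.43 and 12.39 with ΔNp63α, against 9.18, 9.02 and 9.20 with TAp63γ and 7.19, 7.30 and 7.54 with the vector. The 3 groups did not overlap, with ΔNp63α highest and the vector lowest. The difference was 3.33 ± 0.09 (SE, n = 3 each, adjusted p = 4.32e-07), which is 10-fold. IFI44L, an interferon-induced gene of the antiviral response, read 11.41, 11.50 and 11.36 with ΔNp63α, against 8.04, 8.25 and 8.18 with TAp63γ and 6.37, 6.24 and 6.33 with the vector. Its difference was 3.27 ± 0.10 (SE, n = 3 each, adjusted p = 4.44e-07), again with no overlap between the isoforms. IFI44, a relative of IFI44L, differed by 2.82 ± 0.10 (SE, n = 3 each, adjusted p = 8.85e-07). IFITM1 has close copies in the genome, so its probe set may share signal with them.

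Sensors of viral RNA lay apart in the same direction. DDX60, a helicase of antiviral signalling, read 11.14, 11.33 and 11.76 with ΔNp63α, against 7.86, 8.47 and 8.21 with TAp63γ and 7.28, 6.53 and 7.04 with the vector. Its ΔNp63α arrays lay 2.67 or more above its TAp63γ arrays. RIGI, which detects viral RNA in the cytoplasm, differed by 2.41 ± 0.10 (SE, n = 3 each, adjusted p = 1.77e-06), and the vector comparison gave 3.84 with ΔNp63α and 1.43 with TAp63γ. Effector genes followed. IFIT1, which binds viral RNA, read 11.18, 11.24 and 10.94 with ΔNp63α, against 8.61, 8.66 and 8.69 with TAp63γ and 4.61, 5.37 and 5.31 with the vector, a difference of 2.46 ± 0.10 (SE, n = 3 each, adjusted p = 2.11e-06). ISG15, a ubiquitin-like protein attached to other proteins during the response, read 12.52, 12.59 and 12.95 with ΔNp63α, against 10.13, 10.67 and 10.39 with TAp63γ and 7.48, 7.16 and 7.42 with the vector. It was abundant with ΔNp63α and lay between ΔNp63α and the vector with TAp63γ. HERC5, the ligase that attaches ISG15, differed by 2.30 ± 0.12 (SE, n = 3 each, adjusted p = 6.49e-06), and MX1, a dynamin-like GTPase that traps viral components, by 2.12 ± 0.14 (SE, n = 3 each, adjusted p = 1.92e-05).

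Some interferon-induced genes were raised over the vector by both isoforms and did not set them apart. TAP1, which carries peptides into the endoplasmic reticulum for antigen presentation, read 9.78, 9.77 and 9.45 with ΔNp63α, against 9.71, 9.70 and 9.64 with TAp63γ and 8.21, 8.28 and 8.15 with the vector. Its isoform arrays overlapped and both lay above the vector. The difference was -0.01 ± 0.11 (SE, n = 3 each, adjusted p = 0.946), while the comparison with the vector gave 1.45 with ΔNp63α and 1.47 with TAp63γ. PSMB8, a subunit of the immunoproteasome, differed by 0.05 ± 0.15 (SE, n = 3 each, adjusted p = 0.825), and SP110, a nuclear body protein, by 0.08 ± 0.09 (SE, n = 3 each, adjusted p = 0.525). PSMB9, another immunoproteasome subunit, was higher with ΔNp63α by 1.01 ± 0.15 (SE, n = 3 each, adjusted p = 0.00121). Over the list of MHC class I and antigen presentation, 5 of 18 members were higher and 0 lower with ΔNp63α (27.8% called, beside 31.0% of all genes), with a median difference of 0.06. Without replicate 1 or 2 of ΔNp63α, or without replicate 3 of TAp63γ, 2 were higher, and without replicate 2 of TAp63γ 3 were. HLA-C, a classical class I molecule, differed by 0.17 ± 0.06 (SE, n = 3 each, adjusted p = 0.0791) and stood at 1.65 with ΔNp63α and 1.48 with TAp63γ relative to the vector. HLA genes are close copies of each other, so their probe sets cannot be taken as specific.

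The machinery of G2 and mitosis was also higher with ΔNp63α, and here TAp63γ lay below the vector. These genes are switched on late in the cell cycle, through a promoter element called the cell cycle genes homology region, and drive chromosome condensation, spindle assembly and division. Of 46 measured members, 40 were higher and 1 lower with ΔNp63α (89.1% called, beside 31.0% of all genes), with a median difference of 1.04. Relative to the vector the median was 0.33 with ΔNp63α, where 20 members were higher and 0 lower, and -0.69 with TAp63γ, where 1 was higher and 34 lower. Arrays of the isoforms did not overlap for 42 of the 46, beside 45.8% of all genes. The share of dividing cells was not measured in these files. Without replicate 3 of ΔNp63α 41 members were higher.

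**Figure D2:**
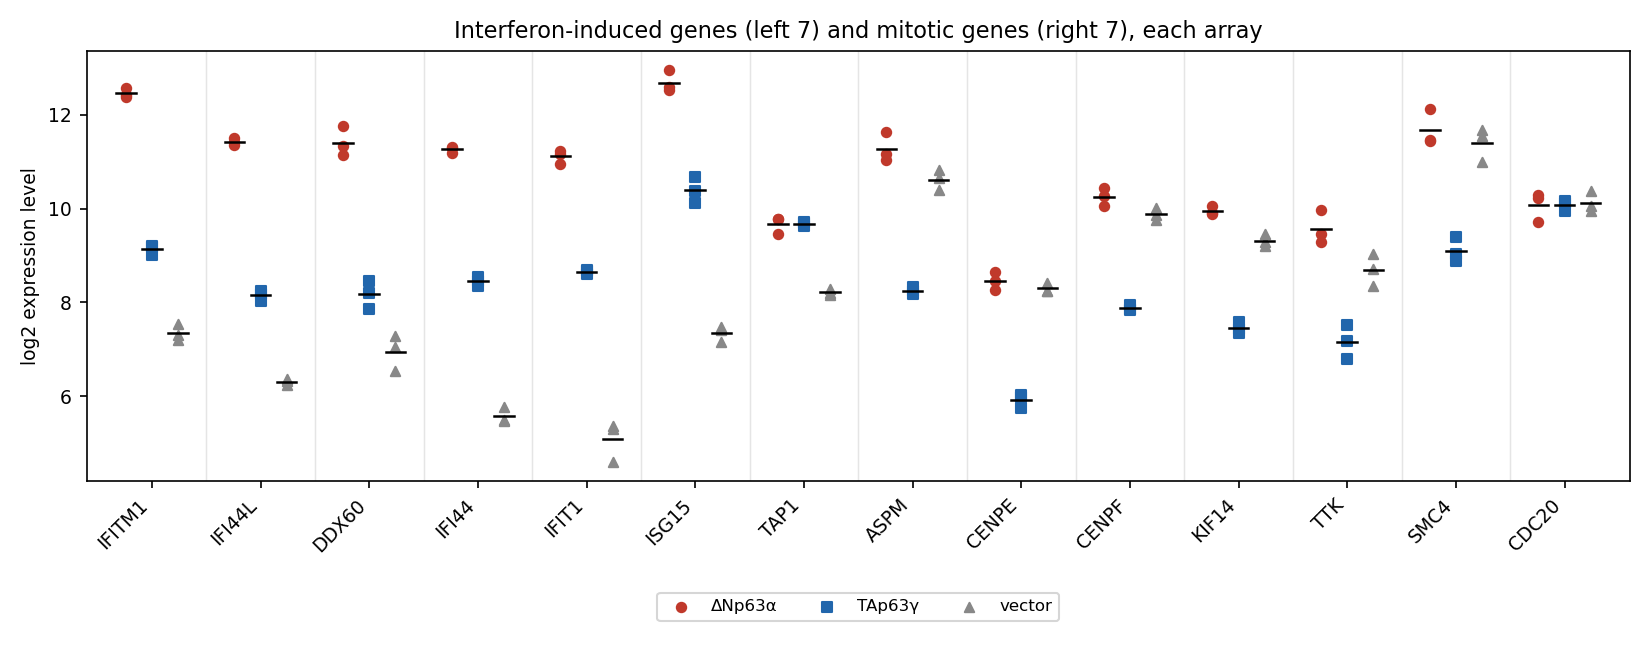
Log2 expression level on each of the 9 overexpression arrays (points; ΔNp63α, TAp63γ and vector from left to right within a gene) with group means (lines) for 7 interferon-induced and 7 mitotic genes. TAp63γ lies between ΔNp63α and the vector for IFITM1 to ISG15, and lies below the other groups for ASPM to SMC4, while TAP1 and CDC20 show no gap between the isoforms.

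The promoter stretches below show the element in a mitotic gene with a large difference and in a cyclin and a kinase of mitosis. CCNB2 and PLK1 were chosen after their values were seen. Capitals mark TTTGAA on either strand, and source, build and orientation are as above.
ASPM (chr1:197146693-197146812, minus strand): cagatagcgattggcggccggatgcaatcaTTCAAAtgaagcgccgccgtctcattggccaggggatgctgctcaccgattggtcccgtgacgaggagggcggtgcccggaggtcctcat
CCNB2 (chr15:59105026-59105145, plus strand): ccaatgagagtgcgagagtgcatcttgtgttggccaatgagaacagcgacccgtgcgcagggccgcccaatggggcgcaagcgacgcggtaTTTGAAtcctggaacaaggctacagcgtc
PLK1 (chr16:23678769-23678888, plus strand): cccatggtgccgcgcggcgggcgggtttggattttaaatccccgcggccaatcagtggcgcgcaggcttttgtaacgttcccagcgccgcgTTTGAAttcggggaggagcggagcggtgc

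TTTGAA stood in 26 of 40 windows of mitotic list members (65.0%) and in 4212 of the 27305 windows of all genes (15.4%). It stood in 24 of 34 windows of members higher with ΔNp63α (70.6%) and in 2 of 5 windows of members that did not pass the test (40%). CCNB2, which encodes cyclin B2, differed by 0.94 ± 0.15 (SE, n = 3 each, adjusted p = 0.00177). PLK1, a kinase needed for spindle assembly and mitotic exit, differed by 0.54 ± 0.12 (SE, n = 3 each, adjusted p = 0.0114).

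ASPM, a protein of the spindle poles, read 11.16, 11.04 and 11.63 with ΔNp63α, against 8.19, 8.32 and 8.24 with TAp63γ and 10.82, 10.39 and 10.65 with the vector. All TAp63γ arrays lay below all vector arrays, and all ΔNp63α arrays lay above them. The difference between the isoforms was 3.03 ± 0.15 (SE, n = 3 each, adjusted p = 5.67e-06), which is 8.17-fold. CENPE, a kinesin that links chromosomes to spindle fibres, read 8.47, 8.26 and 8.65 with ΔNp63α, against 5.74, 5.99 and 6.02 with TAp63γ and 8.41, 8.25 and 8.24 with the vector. Its ΔNp63α arrays overlapped with the vector, and its TAp63γ arrays lay below both. The motors KIF18A, which controls the length of spindle fibres, and KIF14, which acts in the final separation of daughter cells, differed by 2.50 ± 0.19 (adjusted p = 5.05e-05) and 2.49 ± 0.11 (adjusted p = 2.11e-06). CENPF, a kinetochore protein, read 10.43, 10.28 and 10.05 with ΔNp63α, against 7.85, 7.94 and 7.87 with TAp63γ and 9.76, 10.02 and 9.86 with the vector, a difference of 2.37 ± 0.12 (SE, n = 3 each, adjusted p = 4.80e-06). TTK, a kinase of the spindle checkpoint, differed by 2.41 ± 0.22 (SE, n = 3 each, adjusted p = 1.02e-04), and HMMR, a spindle protein and hyaluronan receptor, by 2.23 ± 0.19 (SE, n = 3 each, adjusted p = 7.39e-05). SMC4, a core subunit of condensin, which compacts chromosomes, read 11.45, 11.47 and 12.12 with ΔNp63α, against 9.04, 9.40 and 8.87 with TAp63γ and 11.68, 10.99 and 11.55 with the vector and differed by 2.58 ± 0.20 (SE, n = 3 each, adjusted p = 5.19e-05).

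Not every mitotic gene differed. CDC20, the activator of the anaphase-promoting complex, read 10.30, 10.24 and 9.71 with ΔNp63α, against 10.17, 9.95 and 10.11 with TAp63γ and 9.95, 10.38 and 10.06 with the vector. All 3 groups overlapped, and the difference was 0.01 ± 0.16 (SE, n = 3 each, adjusted p = 0.984). PTTG1, the securin that CDC20 helps to destroy, was the member lower with ΔNp63α, by -0.54 ± 0.07 (SE, n = 3 each, adjusted p = 7.17e-04). Relative to the vector, PTTG1 stood higher with both, by 0.64 with ΔNp63α and 1.18 with TAp63γ.

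Genes of G1/S and DNA replication were called in both directions. Of 49 measured members, 19 were higher and 5 lower with ΔNp63α (49.0% called, beside 31.0% of all genes), with a median difference of 0.27. Over the vector the median was 0.56 with ΔNp63α and 0.35 with TAp63γ, so the median lay above the vector with both isoforms. CDC7, a kinase that fires replication origins, differed by 1.51 ± 0.17 (SE, n = 3 each, adjusted p = 3.55e-04). PRIM1, the primase subunit that lays down RNA primers, differed by 1.07 ± 0.11 (adjusted p = 2.13e-04), and CDT1, which loads the replicative helicase, by 0.88 ± 0.15 (adjusted p = 0.00219). PCNA, the sliding clamp of DNA polymerase, read 11.51, 11.78 and 11.96 with ΔNp63α, against 11.50, 11.77 and 11.65 with TAp63γ and 10.91, 10.57 and 10.77 with the vector. The isoform arrays overlapped and both lay above the vector. Of the D-type cyclins, which carry growth signals into the cycle, CCND2 was lower with ΔNp63α by -1.19 ± 0.12 (SE, n = 3 each, adjusted p = 1.73e-04) and CCND1 by -0.64 ± 0.09 (SE, n = 3 each, adjusted p = 9.47e-04), and CCND3 differed by 0.08 ± 0.11 (SE, n = 3 each, adjusted p = 0.661). Without replicate 3 of TAp63γ 3 members were lower in place of 5. The E2F motifs TTTCGCGC and TTTGGCGC stood in 13 of 41 windows of list members (31.7%), against 322 of 27305 (1.18%) in all genes, with 4 of 18 (22.2%) among higher members and 9 of 20 (45%) among members that did not pass.

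Genes of DNA repair and the damage checkpoint were mostly higher with ΔNp63α: 14 of 22 higher and 1 lower. The median difference was 0.58, and 68.2% were called, beside 31.0% of all genes. RAD54B, a motor protein of homologous recombination, differed by 1.56 ± 0.24, BRCA1, a recombination and checkpoint protein, by 1.29 ± 0.09, and the kinase ATM, which senses broken DNA, by 0.97 ± 0.11, with adjusted p = 0.00169, 2.76e-05 and 2.75e-04 in that order. CHEK2, a checkpoint kinase that ATM activates, differed by -0.04 ± 0.10 (SE, n = 3 each, adjusted p = 0.812), and H2AX, the histone marked at breaks, by 0.06 ± 0.12 (SE, n = 3 each, adjusted p = 0.758). GADD45B, a stress-induced regulator of growth arrest, was lower by -0.52 ± 0.11 (SE, n = 3 each, adjusted p = 0.00713).

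The p53 response had the lowest median difference of the 37 lists. The genes on this list are activated by p53, and by TA forms of p63 in other settings, and act in cell cycle arrest, apoptosis and feedback on p53. Of 33 measured members, 22 were lower and 3 higher with ΔNp63α (75.8% called, beside 31.0% of all genes), with a median difference of -0.51. Relative to the vector the median was -0.13 with ΔNp63α, where 4 were higher and 10 lower, and 0.36 with TAp63γ, where 18 were higher and 4 lower. Without replicate 3 of ΔNp63α 23 members were lower, and without replicate 3 of TAp63γ 1 was higher.

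TP53I3, a quinone oxidoreductase induced by p53, read 9.77, 9.78 and 9.42 with ΔNp63α, against 12.29, 12.26 and 12.27 with TAp63γ and 10.60, 10.70 and 10.62 with the vector. The vector arrays lay between the isoforms without overlap. The difference was -2.62 ± 0.11 (SE, n = 3 each, adjusted p = 2.11e-06), which is 6.14-fold lower with ΔNp63α. MDM2, the ubiquitin ligase that destroys p53, read 7.41, 7.31 and 7.17 with ΔNp63α, against 9.02, 9.37 and 9.36 with TAp63γ and 7.82, 7.89 and 7.72 with the vector. It also had the vector between the isoforms. Its difference was -1.95 ± 0.12 (SE, n = 3 each, adjusted p = 1.86e-05). CDKN1A, the cyclin-dependent kinase inhibitor p21, read 10.89, 10.89 and 10.36 with ΔNp63α, against 12.45, 12.23 and 12.40 with TAp63γ and 10.57, 10.95 and 10.76 with the vector. Its ΔNp63α arrays overlapped with the vector, and its TAp63γ arrays lay above both. The difference was -1.65 ± 0.15 (SE, n = 3 each, adjusted p = 1.03e-04). PLK2, a kinase induced by stress, differed by -1.80 ± 0.10 (SE, n = 3 each, adjusted p = 8.69e-06), and CD82, a membrane protein linked to suppression of metastasis, by -1.64 ± 0.14 (SE, n = 3 each, adjusted p = 8.57e-05). PHLDA3, an inhibitor of AKT, differed by -1.45 ± 0.09 (SE, n = 3 each, adjusted p = 1.84e-05).

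Not all lower members lay above the vector with TAp63γ. GDF15, a secreted stress hormone, read 9.84, 9.73 and 9.56 with ΔNp63α, against 10.92, 10.76 and 10.91 with TAp63γ and 10.92, 11.20 and 11.03 with the vector. Its TAp63γ arrays overlapped with the vector, and ΔNp63α lay below both. The difference was -1.16 ± 0.10 (SE, n = 3 each, adjusted p = 1.05e-04). ZMAT3, an RNA-binding protein, differed by -1.03 ± 0.15 (SE, n = 3 each, adjusted p = 0.0012), with -1.21 with ΔNp63α and -0.18 with TAp63γ (the TAp63γ difference did not pass the test) relative to the vector. SESN1, an antioxidant regulator of mTORC1, differed by -0.96 ± 0.11 (SE, n = 3 each, adjusted p = 3.44e-04). CCNG1, cyclin G1, ran the other way and read 12.22, 12.14 and 12.68 with ΔNp63α, against 11.59, 11.79 and 11.50 with TAp63γ and 12.64, 12.21 and 12.56 with the vector. Its TAp63γ arrays lay below the other groups, and the difference was 0.72 ± 0.14 (SE, n = 3 each, adjusted p = 0.00581). FAS, a death receptor, differed by 0.17 ± 0.11 (SE, n = 3 each, adjusted p = 0.288), and TNFRSF10B, a receptor for the death ligand TRAIL, by -0.05 ± 0.11 (SE, n = 3 each, adjusted p = 0.785).

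Regulators of apoptosis differed in both directions. In the BCL2 family and the caspases, 8 of 26 members were lower and 3 higher with ΔNp63α, with a median difference of -0.23, and 42.3% were called, beside 31.0% of all genes. With all 15 arrays in the fit, or with the mean of a gene's probe sets, 13 were lower. BAX, which permeabilizes mitochondria, read 8.29, 8.23 and 7.82 with ΔNp63α, against 9.08, 8.87 and 9.04 with TAp63γ and 7.55, 7.90 and 7.65 with the vector. Both isoforms lay above the vector or overlapped with its upper end, and TAp63γ was highest, with a difference of -0.89 ± 0.14 (SE, n = 3 each, adjusted p = 0.00183). BAK1, with the same function as BAX, differed by -0.76 ± 0.09 (adjusted p = 4.34e-04), and PMAIP1, the BH3-only protein NOXA, by -0.56 ± 0.11 (adjusted p = 0.00498). MCL1, an anti-apoptotic member, read 13.33, 13.44 and 13.38 with ΔNp63α, against 12.43, 12.36 and 12.37 with TAp63γ and 12.68, 12.72 and 12.71 with the vector. It was higher with ΔNp63α without overlap, by 0.999 ± 0.06 (SE, n = 3 each, adjusted p = 1.62e-05). BIRC2, an inhibitor of apoptosis protein, was higher by 0.70 ± 0.10 (SE, n = 3 each, adjusted p = 8.92e-04). BCL2 differed by -0.06 ± 0.09 (SE, n = 3 each, adjusted p = 0.681), and BCL2L1, which encodes BCL-XL, by -0.10 ± 0.09 (SE, n = 3 each, adjusted p = 0.451). Among 14 death receptors and ligands 3 were lower and 2 higher with ΔNp63α, 35.7% called beside 31.0% of all genes. The higher count was 1 without replicate 1 of either isoform and 0 without replicate 3 of TAp63γ. TNFSF10, the ligand TRAIL, which is also induced by interferon, read 8.10, 7.82 and 8.07 with ΔNp63α, against 9.93, 9.64 and 9.62 with TAp63γ and 5.42, 5.46 and 5.47 with the vector. It was raised over the vector by both isoforms and lower with ΔNp63α by -1.73 ± 0.12 (SE, n = 3 each, adjusted p = 3.57e-05).

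Among 10 measured inhibitors of cyclin-dependent kinases and members of the RB family, 3 were lower and 3 higher with ΔNp63α. Of all genes, 15.8% were lower and 15.2% higher. Beside CDKN1A, CDKN1C, which encodes p57, was lower by -1.03 ± 0.12 (SE, n = 3 each, adjusted p = 4.33e-04), although the mean of its probe sets gave -0.30 and did not pass (adjusted p = 0.0633). CDKN2D, which encodes p19, was lower by -0.69 ± 0.14 (SE, n = 3 each, adjusted p = 0.00618). CDKN3, a phosphatase of cyclin-dependent kinases that is itself made in mitosis, was higher by 1.67 ± 0.13 (SE, n = 3 each, adjusted p = 4.96e-05). CDKN2A, at the locus of p16, read 6.71, 6.64 and 6.60 with ΔNp63α, against 6.59, 6.50 and 6.67 with TAp63γ, a difference of 0.06 ± 0.08 (SE, n = 3 each, adjusted p = 0.613).

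**Figure D3:**
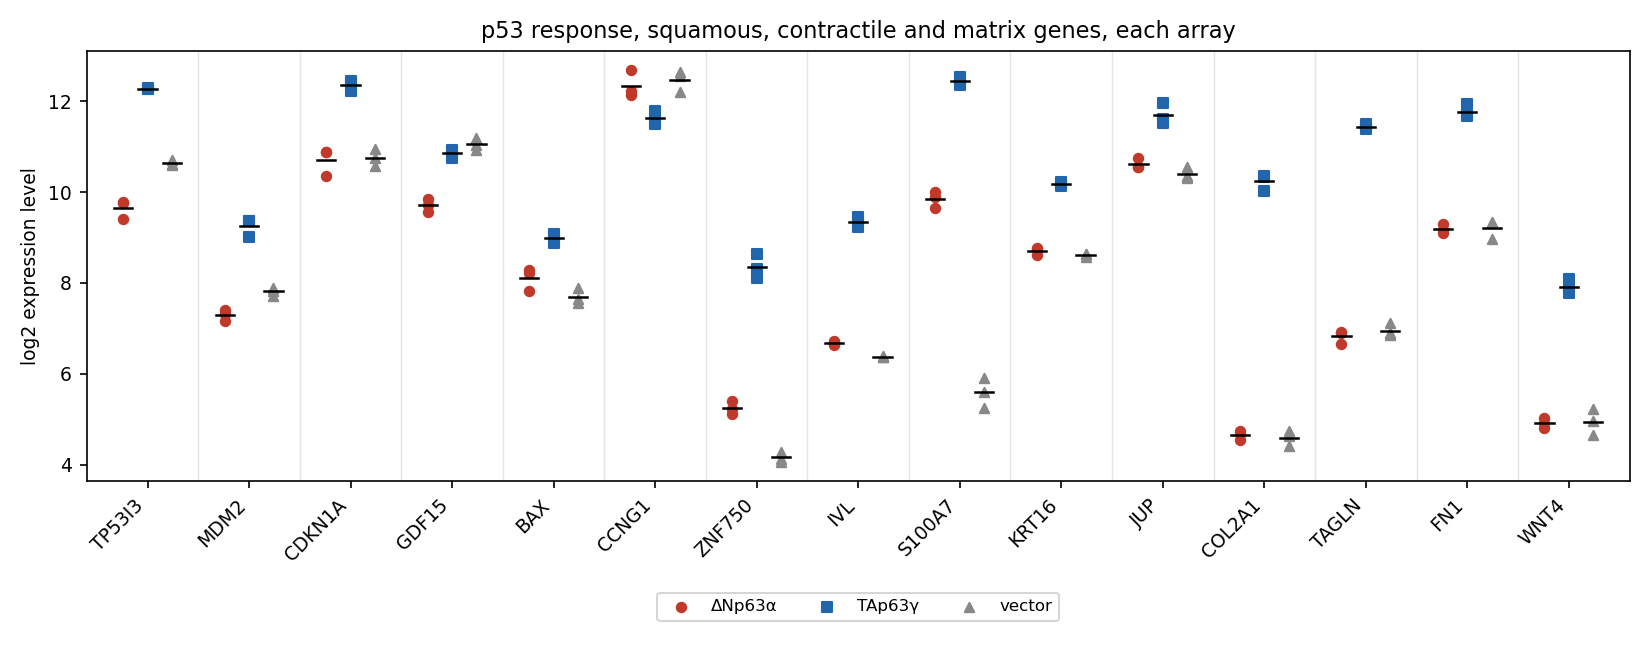
Log2 expression level on each of the 9 overexpression arrays (points; ΔNp63α, TAp63γ and vector from left to right within a gene) with group means (lines) for genes of the p53 response, squamous differentiation, contraction and the matrix. TAp63γ lies above ΔNp63α for every gene shown except CCNG1. Genes for which ΔNp63α overlaps with the vector include CDKN1A, BAX, CCNG1, KRT16, COL2A1, TAGLN, FN1 and WNT4.

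Genes of squamous differentiation, the programme of cells that leave the basal layer, were mostly lower with ΔNp63α where they differed. Of 38 measured members, 19 were lower and 2 higher (1 without replicate 1 or 2 of ΔNp63α or replicate 2 or 3 of TAp63γ). The median difference was -0.28, and 55.3% were called, beside 31.0% of all genes. At the median the isoforms stood over the vector, by 0.38 with ΔNp63α, where 21 members were higher and 1 lower, and by 0.74 with TAp63γ, where 25 were higher and 2 lower. Without replicate 3 of ΔNp63α 19 members were lower.

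ZNF750, a transcription factor that drives late differentiation, read 5.13, 5.22 and 5.40 with ΔNp63α, against 8.12, 8.64 and 8.31 with TAp63γ and 4.14, 4.07 and 4.28 with the vector. The groups did not overlap, in the order vector, ΔNp63α and TAp63γ from low to high. However, the vector arrays were below background, and the ΔNp63α arrays lay little above the 20th percentiles of 5.12, 5.11 and 5.13. The difference was -3.11 ± 0.14 (SE, n = 3 each, adjusted p = 2.88e-06). IVL, involucrin, a protein of the cornified envelope, read 6.68, 6.71 and 6.64 with ΔNp63α, against 9.45, 9.22 and 9.37 with TAp63γ and 6.40, 6.37 and 6.37 with the vector, a difference of -2.67 ± 0.10 (SE, n = 3 each, adjusted p = 1.04e-06) or 6.37-fold. S100A7, psoriasin, an antimicrobial protein of stressed epidermis, read 10.01, 9.90 and 9.65 with ΔNp63α, against 12.43, 12.37 and 12.52 with TAp63γ and 5.24, 5.92 and 5.61 with the vector. Vector arrays lay below both isoforms without overlap, and the isoforms differed by -2.59 ± 0.11 (SE, n = 3 each, adjusted p = 2.11e-06). SPRR2B and SPRR1A, small proline-rich proteins of the cornified envelope, differed by -2.41 ± 0.12 (adjusted p = 6.18e-06) and -1.10 ± 0.16 (adjusted p = 0.0011), and PI3, the elastase inhibitor elafin, by -2.24 ± 0.16 (adjusted p = 3.55e-05). SERPINB4, a protease inhibitor of squamous cells, differed by -1.83 ± 0.14 (SE, n = 3 each, adjusted p = 4.85e-05). SPRR2 and SERPINB3/SERPINB4 are families of close copies, so their probe sets may share signal.

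Other members of the list behaved otherwise. S100A8, a subunit of calprotectin, read 14.04, 14.03 and 14.13 with ΔNp63α, against 14.03, 14.29 and 14.15 with TAp63γ and 11.16, 10.97 and 11.19 with the vector. The isoforms overlapped, and both lay above the vector. PPL, periplakin, which anchors filaments at the cornified envelope, was higher with ΔNp63α by 0.80 ± 0.10 (SE, n = 3 each, adjusted p = 4.60e-04). The late marker FLG, filaggrin, and KRT1, a keratin of the layers above the basal one, were low. FLG read 3.69, 3.65 and 3.72 with ΔNp63α, against 3.56, 3.52 and 3.57 with TAp63γ. KRT1 read 5.04, 5.02 and 4.99 with ΔNp63α, against 5.05, 4.92 and 4.81 with TAp63γ. FLG and KRT1 lay below background in both groups.

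Keratins, the filaments of epithelia, were lower with ΔNp63α for 6 of 14 measured members and higher for 1. Of all genes, 15.8% were lower and 15.2% higher. KRT16, a keratin of wounded and hyperproliferative epidermis, read 8.75, 8.76 and 8.63 with ΔNp63α, against 10.16, 10.21 and 10.13 with TAp63γ and 8.64, 8.64 and 8.57 with the vector, a difference of -1.46 ± 0.09 (SE, n = 3 each, adjusted p = 1.71e-05). KRT23 differed by -1.56 ± 0.08 (SE, n = 3 each, adjusted p = 6.49e-06). KRT5 was lower with ΔNp63α by -0.60 ± 0.11 (SE, n = 3 each, adjusted p = 0.0031), and its partner in basal cells, KRT14, differed by -0.18 ± 0.07 (SE, n = 3 each, adjusted p = 0.0907) while both isoforms lay above the vector, by 1.90 with ΔNp63α and 2.08 with TAp63γ. The luminal keratins KRT8 and KRT7 were lower by -0.72 ± 0.10 (adjusted p = 8.61e-04) and -0.78 ± 0.10 (adjusted p = 6.93e-04). KRT15, a keratin of basal and progenitor cells, was the higher member, by 0.66 ± 0.17 (SE, n = 3 each, adjusted p = 0.017), but it did not pass the test without replicate 1 or 2 of ΔNp63α or replicate 1 or 2 of TAp63γ (adjusted p = 0.0636, 0.0647, 0.07 and 0.0655 in that order).

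Desmosomes, the junctions that join keratin filaments of neighbouring cells, had 5 of 13 measured members lower and 0 higher with ΔNp63α, 38.5% called beside 31.0% of all genes, of which 15.8% were lower. JUP, plakoglobin, read 10.76, 10.55 and 10.55 with ΔNp63α, against 11.97, 11.61 and 11.52 with TAp63γ and 10.31, 10.55 and 10.35 with the vector, a difference of -1.08 ± 0.13 (SE, n = 3 each, adjusted p = 4.34e-04). PERP, a desmosomal protein that p53 and p63 activate, differed by -1.03 ± 0.08 (SE, n = 3 each, adjusted p = 4.64e-05), DSC3, desmocollin 3, by -0.75 ± 0.11 (SE, n = 3 each, adjusted p = 0.00108), and DSP, desmoplakin, by -0.59 ± 0.07 (SE, n = 3 each, adjusted p = 5.70e-04). Relative to the vector, JUP stood at 0.22 with ΔNp63α and 1.30 with TAp63γ (the ΔNp63α difference did not pass the test). Hemidesmosomes, which attach basal cells to the basement membrane, had 3 of 7 members higher and 1 lower with ΔNp63α. Of the 7, 57.1% were called, beside 31.0% of all genes, and 1 was higher without replicate 3 of TAp63γ. DST, dystonin, was higher by 0.98 ± 0.09 (SE, n = 3 each, adjusted p = 1.40e-04). The integrin subunits ITGA6 and ITGB4, which together hold the hemidesmosome, were higher by 0.51 ± 0.15 (adjusted p = 0.03) and 0.58 ± 0.15 (adjusted p = 0.0191). The ITGA6 call was lost without replicate 2 or 3 of ΔNp63α or replicate 1 or 3 of TAp63γ (adjusted p = 0.0871, 0.0516, 0.119 and 0.0994). The ITGB4 call was lost without replicate 1 of ΔNp63α or replicate 2 or 3 of TAp63γ (adjusted p = 0.0712, 0.075 and 0.0925). LAMB3, a chain of laminin-332, differed by 0.11 ± 0.12 (SE, n = 3 each, adjusted p = 0.561). Of 24 other integrins and basement membrane genes, 4 were higher and 2 lower with ΔNp63α, 25% called, below the 31.0% of all genes. The higher count was 8 with all 15 arrays in the fit, 7 with cyclic loess normalization and 9 with the floor, and the lower count was 5 with the mean of a gene's probe sets. LAMB1, a laminin chain, was higher by 0.76 ± 0.12 (SE, n = 3 each, adjusted p = 0.00184).

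Among adherens and tight junction genes, CDH1, CDH3 and CLDN1 were lower with ΔNp63α. CDH1, E-cadherin, read 10.65, 10.62 and 10.56 with ΔNp63α, against 11.41, 11.52 and 11.67 with TAp63γ and 11.45, 11.42 and 11.38 with the vector, a difference of -0.92 ± 0.09 (SE, n = 3 each, adjusted p = 1.83e-04), and its ΔNp63α arrays lay below the vector. CDH3, P-cadherin of basal cells, differed by -1.15 ± 0.11 (SE, n = 3 each, adjusted p = 1.73e-04), and CLDN1, claudin 1, by -2.45 ± 0.14 (SE, n = 3 each, adjusted p = 1.10e-05). EPCAM, an epithelial adhesion molecule, was higher by 0.82 ± 0.15 (SE, n = 3 each, adjusted p = 0.00414). Over the list of cadherins and mesenchymal transition, 4 of 16 members were lower and 2 higher (37.5% called, beside 31.0% of all genes), and 1 was higher without replicate 2 or 3 of ΔNp63α or replicate 2 of TAp63γ. SNAI2, a repressor of E-cadherin that is abundant in basal cells, read 11.58, 11.68 and 11.67 with ΔNp63α, against 11.33, 11.59 and 11.45 with TAp63γ, a difference of 0.19 ± 0.09 (SE, n = 3 each, adjusted p = 0.163), and VIM, vimentin, differed by 0.24 ± 0.09 (SE, n = 3 each, adjusted p = 0.0854).

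The largest differences of all were those of COL2A1 and TAGLN, a matrix and a contractile gene that rose over the vector with TAp63γ and stood near the vector with ΔNp63α. COL2A1, the collagen of cartilage, read 4.68, 4.54 and 4.75 with ΔNp63α, against 10.33, 10.03 and 10.36 with TAp63γ and 4.63, 4.74 and 4.41 with the vector. ΔNp63α and the vector overlapped and lay below background on every array, while the TAp63γ arrays were well above it. The difference was -5.59 ± 0.11 (SE, n = 3 each, adjusted p = 1.46e-07), and -5.12 with levels raised to the 20th percentile of their array. TAGLN, transgelin, an actin-binding protein of smooth muscle and myoepithelial cells, read 6.92, 6.89 and 6.66 with ΔNp63α, against 11.50, 11.39 and 11.41 with TAp63γ and 6.89, 7.12 and 6.85 with the vector. The difference was -4.61 ± 0.10 (SE, n = 3 each, adjusted p = 1.84e-07), or 24.4-fold, and ΔNp63α overlapped with the vector. MYL9, a regulatory light chain of myosin, differed by -3.27 ± 0.13 (SE, n = 3 each, adjusted p = 2.06e-06), and ACTA2, smooth muscle actin, by -2.17 ± 0.14 (SE, n = 3 each, adjusted p = 1.69e-05). TPM1, tropomyosin, differed by -1.26 ± 0.10 (SE, n = 3 each, adjusted p = 5.96e-05). Of 13 contractile and myoepithelial genes 6 were lower and 2 higher with ΔNp63α (61.5% called, beside 31.0% of all genes). With any single array left out 0 or 1 were higher. CALD1, caldesmon, differed by 0.07 ± 0.08 (SE, n = 3 each, adjusted p = 0.591).

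FN1, fibronectin, read 9.17, 9.10 and 9.30 with ΔNp63α, against 11.69, 11.93 and 11.67 with TAp63γ and 9.33, 8.97 and 9.34 with the vector. Its ΔNp63α arrays overlapped with the vector, and the difference between the isoforms was -2.58 ± 0.11 (SE, n = 3 each, adjusted p = 2.06e-06). TNC, tenascin C, a matrix protein of wounds, differed by -1.40 ± 0.10 (SE, n = 3 each, adjusted p = 3.58e-05), and MFAP5, a microfibril protein, by -2.55 ± 0.10 (SE, n = 3 each, adjusted p = 1.43e-06). WNT4, a Wnt ligand of breast development, read 5.02, 4.91 and 4.82 with ΔNp63α, against 8.09, 7.77 and 7.89 with TAp63γ and 5.22, 4.95 and 4.65 with the vector. Its ΔNp63α arrays were below background, and the difference was -3.01 ± 0.10 (SE, n = 3 each, adjusted p = 8.85e-07), or -2.80 with the floor. NSG1, a protein of endosome trafficking best known from neurons, read 7.19, 7.15 and 6.75 with ΔNp63α, against 11.19, 10.86 and 10.96 with TAp63γ and 6.60, 6.47 and 6.50 with the vector, a difference of -3.97 ± 0.15 (SE, n = 3 each, adjusted p = 1.07e-06). SHROOM2, an actin regulator, differed by -2.96 ± 0.10 (SE, n = 3 each, adjusted p = 1.01e-06), and LBH, a transcription cofactor of embryonic and mammary development, by -2.61 ± 0.10 (SE, n = 3 each, adjusted p = 1.25e-06).

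Other genes among the 25 with the largest differences lower with ΔNp63α had varied roles. HCAR3, a receptor for hydroxylated fatty acids, differed by -3.11 ± 0.10 (SE, n = 3 each, adjusted p = 8.85e-07). HAGH, an enzyme of methylglyoxal detoxification, differed by -2.62 ± 0.16 (SE, n = 3 each, adjusted p = 1.32e-05), and CYB5R1, a cytochrome b5 reductase, by -2.32 ± 0.10 (SE, n = 3 each, adjusted p = 2.47e-06). SERPINA1, alpha-1-antitrypsin, differed by -2.42 ± 0.17 (SE, n = 3 each, adjusted p = 3.11e-05), CPE, a carboxypeptidase of prohormones, by -2.29 ± 0.15 (SE, n = 3 each, adjusted p = 1.80e-05) and VSNL1, a neuronal calcium sensor, by -2.31 ± 0.11 (SE, n = 3 each, adjusted p = 5.42e-06). OLFM4, olfactomedin 4, was below background with ΔNp63α. Its difference was -2.37 ± 0.11 (SE, n = 3 each, adjusted p = 2.84e-06), and -0.99 with the floor. TMEM40 differed by -2.66 ± 0.09 (SE, n = 3 each, adjusted p = 8.85e-07) and CRCT1, a gene of the epidermal differentiation complex, by -2.36 ± 0.08 (SE, n = 3 each, adjusted p = 8.85e-07).

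Of 25 proteases and inhibitors of the matrix and the plasminogen system, 12 were lower and 3 higher with ΔNp63α, with a median difference of -0.32. The shares over all genes were 15.8% lower and 15.2% higher. MMP10, stromelysin 2, read 8.37, 8.37 and 8.37 with ΔNp63α, against 10.27, 10.42 and 10.41 with TAp63γ and 4.56, 4.93 and 4.91 with the vector. The vector was lowest, with its arrays below background, and TAp63γ was highest. The isoforms differed by -2.001 ± 0.09 (SE, n = 3 each, adjusted p = 3.22e-06). PLAT, tissue plasminogen activator, differed by -2.01 ± 0.10 (SE, n = 3 each, adjusted p = 4.80e-06) and PLAUR, the receptor of urokinase, by -1.18 ± 0.10 (SE, n = 3 each, adjusted p = 9.90e-05). MMP1, interstitial collagenase, read 9.03, 9.25 and 9.54 with ΔNp63α, against 9.35, 9.83 and 9.59 with TAp63γ and 3.83, 4.03 and 4.14 with the vector. The isoforms overlapped with each other and lay far above the vector, whose arrays were below background. The isoforms differed by -0.32 ± 0.16 (SE, n = 3 each, adjusted p = 0.184). TFPI2, an inhibitor of plasmin and other proteases, also rose over the vector with both, by 6.50 with ΔNp63α and 6.54 with TAp63γ, and differed by -0.04 ± 0.11 (SE, n = 3 each, adjusted p = 0.818) between them. TFPI, an inhibitor of the start of coagulation, was higher with ΔNp63α by 1.58 ± 0.16 (SE, n = 3 each, adjusted p = 1.87e-04).

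Inflammatory genes under NF-kB were raised over the vector by both isoforms and, where the isoforms differed, were mostly lower with ΔNp63α. Of 27 members, 13 were lower and 2 higher (1 without replicate 1 or 3 of ΔNp63α or replicate 2 or 3 of TAp63γ). The median difference was -0.27, and 55.6% were called, beside 31.0% of all genes. The median over the vector was 1.08 with ΔNp63α, where 20 were higher and 0 lower, and 1.19 with TAp63γ, where 20 were higher and 0 lower. IL1B, the cytokine interleukin-1 beta, read 10.83, 10.74 and 10.50 with ΔNp63α, against 12.90, 12.77 and 12.94 with TAp63γ and 8.99, 9.06 and 8.995 with the vector. The groups did not overlap, with TAp63γ highest, and the difference was -2.18 ± 0.10 (SE, n = 3 each, adjusted p = 3.83e-06). CXCL1, a chemokine for neutrophils, differed by -1.54 ± 0.08 (SE, n = 3 each, adjusted p = 6.78e-06), IL32 by -1.77 ± 0.10 (SE, n = 3 each, adjusted p = 7.61e-06) and LCN2, an iron-trapping antimicrobial protein, by -1.55 ± 0.13 (SE, n = 3 each, adjusted p = 6.88e-05). CCL20, a chemokine for dendritic cells and lymphocytes, read 12.06, 12.13 and 12.50 with ΔNp63α, against 10.22, 10.53 and 10.43 with TAp63γ and 10.34, 9.88 and 10.14 with the vector. It was higher with ΔNp63α by 1.84 ± 0.13 (SE, n = 3 each, adjusted p = 3.57e-05), with 2.11 with ΔNp63α and 0.27 with TAp63γ (the TAp63γ difference did not pass the test) relative to the vector. NFKBIA, the inhibitor IkB-alpha and itself a target of NF-kB, read 11.85, 11.78 and 11.46 with ΔNp63α, against 11.76, 11.60 and 11.72 with TAp63γ and 10.60, 10.85 and 10.69 with the vector. The isoforms overlapped above the vector, with a difference of 0.002 ± 0.11 (SE, n = 3 each, adjusted p = 0.991).

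In the interleukin-1 family 6 of 11 members were lower and 1 higher with ΔNp63α (63.6% called, beside 31.0% of all genes). IL36G, an agonist made by differentiated epithelium, read 7.95, 7.97 and 7.88 with ΔNp63α, against 10.97, 10.99 and 11.06 with TAp63γ and 5.61, 4.66 and 5.53 with the vector, a difference of -3.07 ± 0.09 (SE, n = 3 each, adjusted p = 4.32e-07). IL1R2, the decoy receptor, differed by -2.22 ± 0.13 (SE, n = 3 each, adjusted p = 1.12e-05), and IL1RN, the receptor antagonist, by -1.78 ± 0.13 (SE, n = 3 each, adjusted p = 3.58e-05). IL33, an alarmin stored in the nucleus, ran the other way and read 6.73, 7.03 and 7.51 with ΔNp63α, against 3.89, 3.90 and 3.92 with TAp63γ and 3.70, 3.66 and 3.68 with the vector. Its TAp63γ and vector arrays were below background. The difference was 3.19 ± 0.17 (SE, n = 3 each, adjusted p = 6.85e-06), or 2.02 with the floor. The receptor subunits IL1R1 and IL1RAP differed by 0.05 ± 0.10 and 0.34 ± 0.14, with adjusted p = 0.729 and 0.111.

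Genes of serine synthesis and of the amino acid response under the factor ATF4 were below the vector with both isoforms, and less so with ΔNp63α. The median difference from the vector was -0.72 with ΔNp63α, where 19 of 27 members were lower, and -1.03 with TAp63γ, where 24 were. Between the isoforms 17 were higher and 2 lower with ΔNp63α (70.4% called, beside 31.0% of all genes), with a median difference of 0.52. SLC7A11, the cystine transporter, read 10.60, 10.59 and 10.99 with ΔNp63α, against 7.27, 7.88 and 7.52 with TAp63γ and 12.02, 11.67 and 11.91 with the vector. The TAp63γ arrays lay below both other groups, and the isoforms differed by 3.17 ± 0.17 (SE, n = 3 each, adjusted p = 7.62e-06). ASNS, asparagine synthetase, read 11.49, 11.48 and 11.28 with ΔNp63α, against 9.77, 9.91 and 9.90 with TAp63γ and 12.70, 12.80 and 12.70 with the vector, a difference of 1.56 ± 0.10 (SE, n = 3 each, adjusted p = 1.59e-05). PHGDH, the first enzyme of serine synthesis, differed by 1.41 ± 0.14 (SE, n = 3 each, adjusted p = 1.71e-04), STC2, a secreted stress protein, by 1.69 ± 0.10 (SE, n = 3 each, adjusted p = 1.59e-05) and CHAC1, which degrades glutathione, by 1.21 ± 0.12 (SE, n = 3 each, adjusted p = 2.04e-04). NUPR1, a stress-induced chromatin protein, was lower with ΔNp63α by -1.52 ± 0.15 (SE, n = 3 each, adjusted p = 1.63e-04). Without replicate 3 of ΔNp63α 21 members were higher.

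Hypoxia and glycolysis genes were lower with ΔNp63α for 15 of 28 measured members and higher for 1. The median difference was -0.33, and 57.1% were called, beside 31.0% of all genes. Over the vector the median was 0.14 with ΔNp63α and 0.47 with TAp63γ. SLC2A1, the glucose transporter GLUT1, read 9.21, 9.21 and 9.21 with ΔNp63α, against 10.41, 10.59 and 10.52 with TAp63γ and 8.49, 8.33 and 8.42 with the vector, a difference of -1.30 ± 0.09 (SE, n = 3 each, adjusted p = 3.02e-05). PFKP, a phosphofructokinase, differed by -1.14 ± 0.17 (SE, n = 3 each, adjusted p = 0.00132), NDRG1, a hypoxia-induced gene, by -1.12 ± 0.14 (SE, n = 3 each, adjusted p = 5.47e-04) and GPI, phosphoglucose isomerase, by -0.79 ± 0.16 (SE, n = 3 each, adjusted p = 0.00613). VEGFA, the angiogenic factor, was the higher member, by 0.87 ± 0.13 (SE, n = 3 each, adjusted p = 0.00139). ENO1, enolase, differed by 0.02 ± 0.06 (SE, n = 3 each, adjusted p = 0.811).

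Antioxidant genes under the factor NRF2 had 10 of 19 members lower and 2 higher with ΔNp63α (63.2% called, beside 31.0% of all genes). Without replicate 3 of TAp63γ 5 were lower. AKR1B10, an aldo-keto reductase, was lower by -1.31 ± 0.10 (SE, n = 3 each, adjusted p = 5.03e-05) and GPX2, a glutathione peroxidase, by -1.01 ± 0.13 (SE, n = 3 each, adjusted p = 6.78e-04). GCLC, the catalytic subunit of glutathione synthesis, was higher by 1.49 ± 0.11 (SE, n = 3 each, adjusted p = 4.69e-05), as was SLC7A11. NQO1, a quinone reductase often read as a marker of NRF2, read 11.25, 11.18 and 11.44 with ΔNp63α, against 11.08, 11.25 and 11.01 with TAp63γ, a difference of 0.18 ± 0.10 (SE, n = 3 each, adjusted p = 0.239). Sterol and fatty acid synthesis had 6 of 20 members lower and 3 higher, beside 15.8% lower and 15.2% higher over all genes. ACLY, which makes cytosolic acetyl-CoA, was lower by -0.91 ± 0.11 (SE, n = 3 each, adjusted p = 3.95e-04), NSDHL, an enzyme of cholesterol synthesis, by -0.93 ± 0.17 (SE, n = 3 each, adjusted p = 0.00325), and SREBF1, a transcription factor of lipid synthesis, was higher by 0.91 ± 0.14 (SE, n = 3 each, adjusted p = 0.00163). The sterol response element TCACNCCAC stood in 1 of 18 windows of these members (5.56%) and in 313 of 27305 windows in all (1.15%). Of 16 chaperones of the endoplasmic reticulum 3 were higher and 3 lower (37.5% called, beside 31.0% of all genes), and 1 was lower without replicate 3 of TAp63γ. HSPA5, the central chaperone BiP, differed by -0.04 ± 0.08 (SE, n = 3 each, adjusted p = 0.73).

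Growth factor signalling held a few large differences. EREG, epiregulin, a ligand of the EGF receptor, read 10.17, 10.23 and 10.79 with ΔNp63α, against 8.14, 8.85 and 8.42 with TAp63γ and 9.21, 8.34 and 8.89 with the vector. It was higher with ΔNp63α without overlap, by 1.93 ± 0.21 (SE, n = 3 each, adjusted p = 2.92e-04). The receptor EGFR itself read 11.16, 11.04 and 10.58 with ΔNp63α, against 11.27, 10.94 and 11.02 with TAp63γ, a difference of -0.15 ± 0.16 (SE, n = 3 each, adjusted p = 0.523), and ERBB2 differed by -0.06 ± 0.12 (SE, n = 3 each, adjusted p = 0.764). Of 9 EGF receptor family members and ligands 2 were higher and 0 lower (22.2% called, beside 31.0% of all genes), with 1 higher without replicate 1 of TAp63γ and 1 lower without replicate 3 of ΔNp63α. Feedback genes of the ERK pathway and early response genes had 7 of 23 members higher and 5 lower with ΔNp63α. Of the 23, 52.2% were called, beside 31.0% of all genes, and 4 were higher without replicate 3 of TAp63γ. DUSP6, a phosphatase that switches ERK off, differed by 1.44 ± 0.11 (SE, n = 3 each, adjusted p = 4.60e-05), FOS, a subunit of the factor AP-1, by 0.84 ± 0.09 (SE, n = 3 each, adjusted p = 2.12e-04) and PHLDA1, an early response gene, by 0.75 ± 0.11 (SE, n = 3 each, adjusted p = 0.00107). IER3, an early response gene, was lower by -0.49 ± 0.08 (SE, n = 3 each, adjusted p = 0.00253). MYC, a driver of growth, differed by 0.17 ± 0.07 (SE, n = 3 each, adjusted p = 0.0987).

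Of 7 FGF receptors and ligands, 4 were higher and 0 lower with ΔNp63α (57.1% called, beside 31.0% of all genes). Without replicate 1 or 3 of TAp63γ 2 were higher. FGFBP1, which releases FGFs from the matrix, read 12.24, 12.17 and 12.14 with ΔNp63α, against 10.84, 10.77 and 10.77 with TAp63γ and 9.01, 8.91 and 9.06 with the vector. Both isoforms lay above the vector, and the difference was 1.39 ± 0.08 (SE, n = 3 each, adjusted p = 7.61e-06). FGFR3, an FGF receptor, differed by 1.18 ± 0.11 (SE, n = 3 each, adjusted p = 1.41e-04). FGFR2, the receptor of keratinocyte growth factor in its epithelial splice form, differed by -0.29 ± 0.12 (SE, n = 3 each, adjusted p = 0.103).

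Notch genes, which act between neighbouring basal and suprabasal cells, mostly did not pass the test: 3 of 19 were lower and 1 higher, 21.1% called beside 31.0% of all genes, and 2 were higher without replicate 2 or 3 of ΔNp63α or replicate 2 of TAp63γ. JAG2, a Notch ligand, read 8.90, 8.75 and 8.58 with ΔNp63α, against 10.40, 9.91 and 10.08 with TAp63γ and 8.78, 9.14 and 8.91 with the vector, a difference of -1.39 ± 0.15 (SE, n = 3 each, adjusted p = 2.26e-04), with ΔNp63α overlapping the vector. The ligand JAG1 differed by 0.01 ± 0.15 (SE, n = 3 each, adjusted p = 0.965). The receptors NOTCH1, NOTCH2 and NOTCH3 differed by 0.41 ± 0.14, -0.31 ± 0.12 and -0.10 ± 0.09, with adjusted p = 0.0524, 0.0883 and 0.446. Of the targets, HEY1 was higher by 0.68 ± 0.09 (SE, n = 3 each, adjusted p = 7.80e-04), HES2 lower by -0.74 ± 0.10 (SE, n = 3 each, adjusted p = 9.69e-04), and HES1 differed by -0.16 ± 0.10 (SE, n = 3 each, adjusted p = 0.297).

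In the TGF-beta, activin and BMP list, 10 of 31 members were lower and 7 higher with ΔNp63α (54.8% called, beside 31.0% of all genes). The inhibitors of differentiation ID2 and ID3 were lower by -1.83 ± 0.09 (adjusted p = 5.42e-06) and -1.58 ± 0.09 (adjusted p = 7.61e-06), while ID1 was higher by 0.76 ± 0.08 (adjusted p = 3.09e-04). TGFBI, a matrix protein induced by TGF-beta, was lower by -1.33 ± 0.08 (SE, n = 3 each, adjusted p = 1.11e-05). LTBP1, which holds latent TGF-beta in the matrix, was higher by 1.10 ± 0.09 (SE, n = 3 each, adjusted p = 5.19e-05) and TGFBR2, the type II receptor, by 0.82 ± 0.11 (SE, n = 3 each, adjusted p = 6.94e-04). INHBA, the activin A subunit, read 9.97, 9.86 and 9.18 with ΔNp63α, against 8.78, 8.67 and 8.80 with TAp63γ and 5.87, 6.17 and 5.69 with the vector. Both isoforms lay above the vector without overlap, and the difference was 0.92 ± 0.19 (SE, n = 3 each, adjusted p = 0.00693). Of 23 Wnt genes 5 were higher and 1 lower, WNT4 being the lower (26.1% called, beside 31.0% of all genes), with 2 lower without replicate 3 of ΔNp63α or replicate 1 or 2 of TAp63γ. FZD2, a Wnt receptor, was higher by 0.76 ± 0.11 (SE, n = 3 each, adjusted p = 0.0015). Of 11 genes of the IGF axis 3 were lower and 2 higher (45.5% called, beside 31.0% of all genes). IGF1R, the receptor of insulin-like growth factors, was lower by -1.21 ± 0.11 (SE, n = 3 each, adjusted p = 1.28e-04), IGFBP3, a binding protein, was lower by -0.76 ± 0.15 (SE, n = 3 each, adjusted p = 0.00585), and IRS1, a docking protein of the receptor, was higher by 1.02 ± 0.09 (SE, n = 3 each, adjusted p = 7.95e-05).

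**Figure D4:**
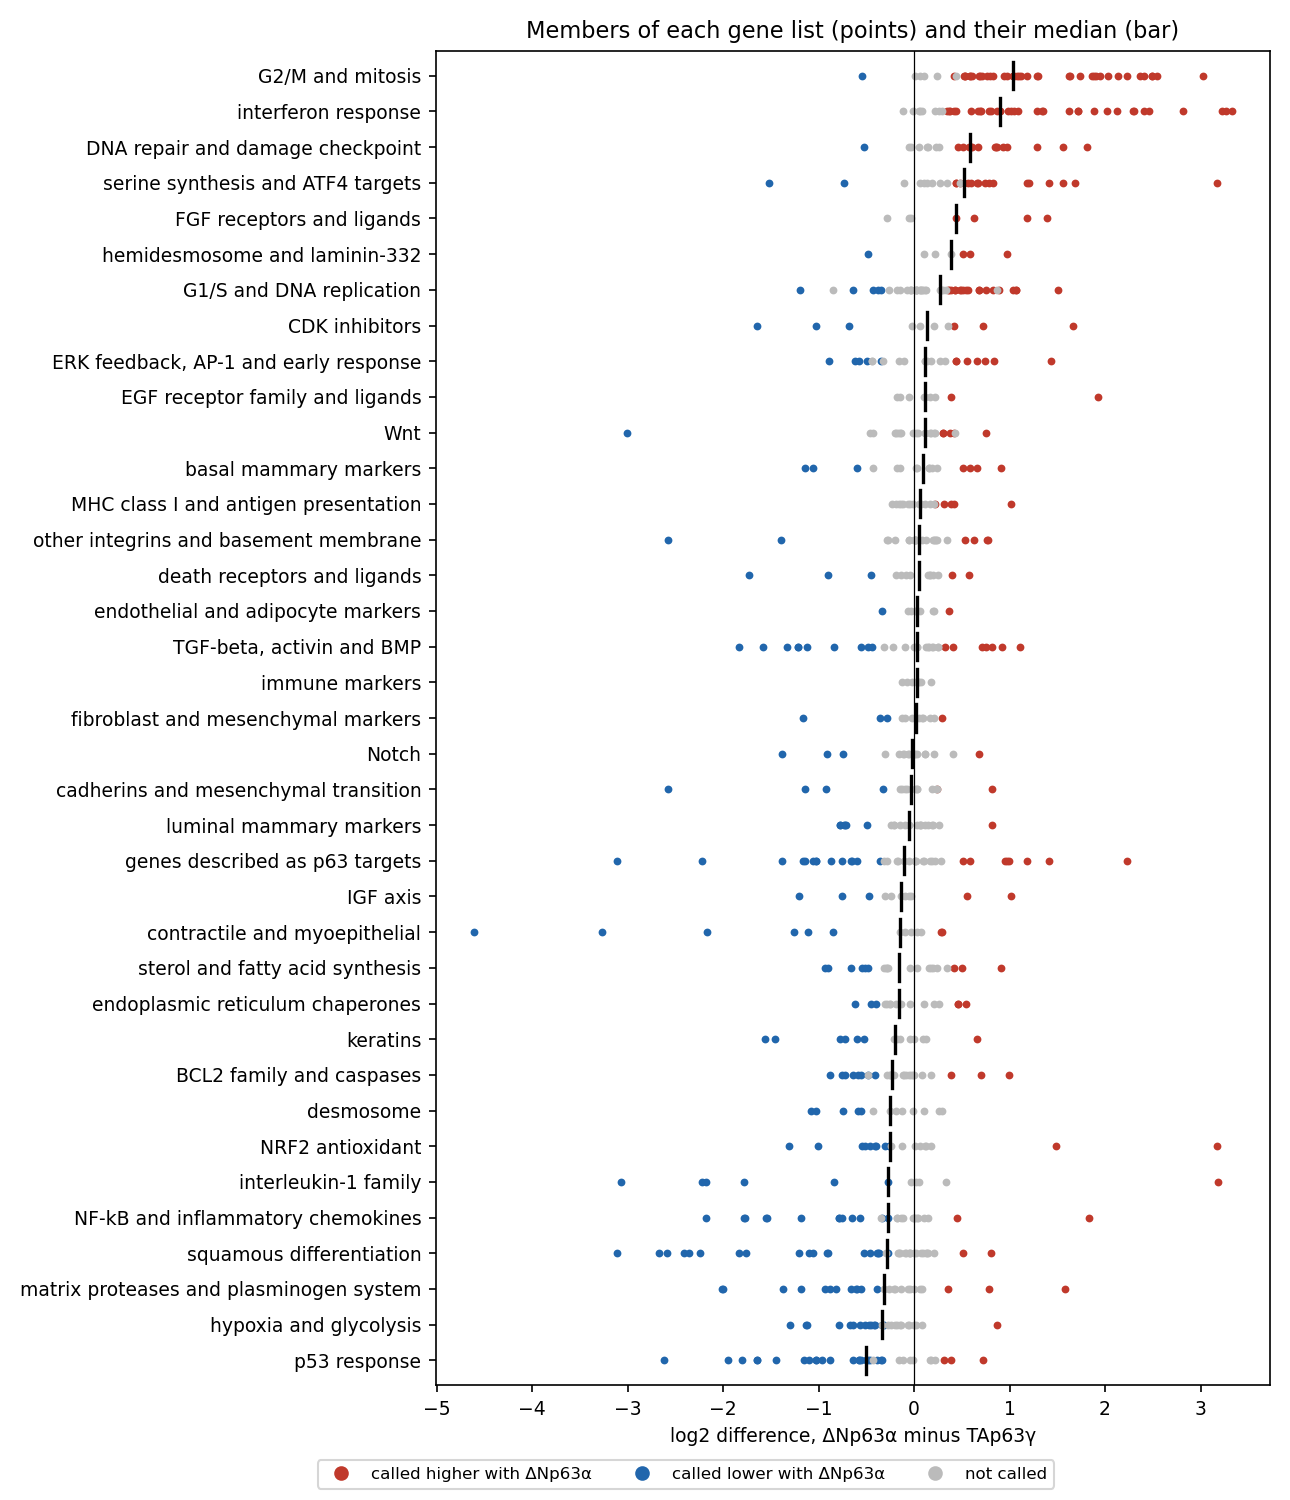
Difference between the isoforms (ΔNp63α minus TAp63γ, log2) of every measured member of 37 gene lists (points, coloured by the call), sorted by the median of the list (bar). Medians run from 1.04 for G2 and mitosis to -0.51 for the p53 response, beside 0.02 over all genes.

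Genes described as p63 targets fell on both sides. Of 37 measured members, 14 were lower and 8 higher with ΔNp63α (59.5% called, beside 31.0% of all genes), with a median difference of -0.10. Those lower included ZNF750, JAG2, CDH3, PERP, IGFBP3 and KRT5, described above, and CLCA2, a membrane protein of basal cells, which differed by -1.16 ± 0.08 (SE, n = 3 each, adjusted p = 3.55e-05). TRIM29, a basal cell protein, differed by -1.06 ± 0.17 (SE, n = 3 each, adjusted p = 0.00218). Those higher included HMMR, PHGDH, FGFR3, MCL1 and DST. JAG1, S100A2, SNAI2 and ITGA3, a laminin-binding integrin, did not pass, with differences of 0.01, 0.02, 0.19 and 0.22.

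The remaining genes among the 25 with the largest differences higher with ΔNp63α were outside the lists and mostly lay below the vector with TAp63γ. PSIP1, a chromatin protein that binds transcribed genes, read 9.55, 9.60 and 10.15 with ΔNp63α, against 7.32, 7.64 and 7.48 with TAp63γ and 10.25, 9.60 and 10.10 with the vector, a difference of 2.29 ± 0.17 (SE, n = 3 each, adjusted p = 3.92e-05), with ΔNp63α and the vector overlapping. CTNNAL1, alpha-catulin, differed by 2.27 ± 0.14 (SE, n = 3 each, adjusted p = 1.32e-05), JMJD1C, of the family of histone demethylases, by 2.05 ± 0.25 (SE, n = 3 each, adjusted p = 5.40e-04) and HSPA13, a chaperone related to HSP70, by 2.15 ± 0.37 (SE, n = 3 each, adjusted p = 0.00282). ECM2, a matrix protein, read 6.95, 6.94 and 7.41 with ΔNp63α, against 4.58, 4.77 and 4.69 with TAp63γ and 9.33, 8.82 and 8.99 with the vector. The TAp63γ arrays were below background, and ΔNp63α lay below the vector. The difference was 2.42 ± 0.13 (SE, n = 3 each, adjusted p = 7.58e-06), or 2.02 with the floor.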

How the data were processed

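Total RNA of MCF-10A cells was hybridized to Affymetrix arrays 48 hours after infection. The deposited values are log2 expression levels per probe set from RMA, per the submitters' processing notes; no version is given there, nor whether the arrays of the whole study were summarized in a single run. RMA brings arrays summarized together to nearly the same distribution. A shift shared by most transcripts is therefore lost, and differences of weakly expressed genes are compressed. Array medians were 6.95 to 6.98 on the overexpression arrays and 7.19 to 7.21 on the knockdown arrays. The overexpression and knockdown arrays therefore did not share a distribution. Arrays have no read depth, and precision is limited by their number.

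The platform annotation gave 1 gene symbol to 19064 of the 22277 probe sets and several to 1043, and held no entry for 2108; the other 62 are array controls. Through Entrez identifiers, 19052 single-symbol probe sets were found in a current gene table, and 0 symbols changed. Each gene was read from whichever of its single-symbol probe sets averaged highest on the 15 arrays, giving 11963 genes, 4310 of them with more than 1. The transcript of p63 is not reported here.

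The 3 ΔNp63α and 3 TAp63γ arrays, grouped by their labels, were compared with limma 3.58.1 in R 4.3.3 (lmFit, eBayes with a variance trend, 4 residual and 4.618 prior degrees of freedom), two-sided, with Benjamini-Hochberg adjustment over the 19064 probe sets at 0.05. Each isoform was set against the vector in a fit of the 9 overexpression arrays. The fit was tested on simulated data. The median SD between replicates was 0.11 with ΔNp63α, 0.0996 with TAp63γ and 0.0986 with the vector.

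The members, the 37 gene lists, the tests and the alternatives were chosen with earlier results of these data known. Named genes are the 25 with the largest difference in each direction among called genes without overlap, all members of 11 lists, up to 5 called members in each direction and 3 uncalled members of the other lists, and the 10 with the smallest adjusted p in each direction; genes from these are shown by their role. Some genes stand in more than 1 list. Summed marker levels are the log2 of summed linear values. Motifs were searched on both strands of the first promoter window listed per gene in RefSeq (GRCh38.p14), for 27305 genes with a window. Alternatives were other sets of arrays, each array left out, no variance trend, the replicate number as a block, renormalization, a filter or floor on low levels and other rules for probe sets.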

Additional observations from a re-analysis of the deposited data

How the results depend on the processing

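None of the 261 named genes that were called changed direction in any of the 16 alternatives in which they were tested (the filter on low values left 405 of 422 named genes), while 51 of the 161 uncalled ones changed sign in at least 1. The 3711 called genes became 3632 to 4665 under the alternatives that kept all 6 arrays, other than the floor. Leaving out single arrays gave 2429 to 3580 genes, 1242 to 1753 higher and 1187 to 1827 lower with ΔNp63α, and the 5 lower members of the G1/S list became 3 to 6. The lowest of these counts came without replicate 3 of TAp63γ and the cause was not tested. Of 3711 calls, 2415 were kept without that array and 0 reversed. Over the alternatives, calls reversed only with the floor, for 21 genes, and with the mean of a gene's probe sets, for 2. Raising levels to the 20th percentile of each array gave 5499 genes, 3486 of them higher, because 1542 genes below the floor on all 6 arrays took the small offset between the arrays' percentiles as a difference; 1944 of the others were higher. With the replicate number as a block 3632 genes were called. Deviations of same-numbered arrays correlated at 0.461, -0.346 and -0.121, so the numbers do not consistently pair the samples. Replicate 3 of ΔNp63α correlated at 0.546 with replicate 2 of TAp63γ, and replicate 1 of ΔNp63α at -0.489 with the same array. Deviations were thus shared between the isoforms out of the order of the numbers. No fit modelled this, and its cause was not tested. The alternatives gave 38 to 41 higher members for mitosis, 32 to 38 for interferon, 18 to 23 lower members for p53 and 16 to 20 for squamous differentiation. Of 74 counts of higher or lower list members, 34 moved by over 1.5 times in some alternative and 23 with a single array left out; of the 27 that were 5 or more, 6 and 4 did. RMA removes any shift common to most genes. The infection, the expressed p63 and the cell cycle distribution were not measured here.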

Other observations

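The groups in this paragraph and the next were chosen after their values were seen, so their counts describe and do not test. Over all genes, 15.2% were higher and 15.8% lower with ΔNp63α. SMC complexes, the rings that hold sister chromatids together or fold chromosomes, and their loaders were higher with ΔNp63α for 20 of 22 measured genes and lower for 1, with a median difference of 1.10. Relative to the vector the medians were 0.12 with ΔNp63α and -0.83 with TAp63γ. STAG2, a subunit of cohesin, read 11.01, 10.88 and 11.50 with ΔNp63α, against 9.11, 9.54 and 9.37 with TAp63γ and 11.41, 10.88 and 11.31 with the vector. The ΔNp63α arrays overlapped with the vector, and TAp63γ lay below both, with a difference between the isoforms of 1.79 ± 0.17 (SE, n = 3 each, adjusted p = 1.52e-04). SMC6, of the complex that acts in DNA repair, differed by 1.74 ± 0.13 (SE, n = 3 each, adjusted p = 4.00e-05), and RAD50, an SMC-related protein that bridges broken ends, by 1.34 ± 0.10 (SE, n = 3 each, adjusted p = 4.74e-05). NCAPH2, of condensin II, was lower by -0.41 ± 0.09 (SE, n = 3 each, adjusted p = 0.00831). Centrosome and cilium genes were higher with ΔNp63α for 20 of 34 and lower for 3, with a median of 0.68. CEP290, a protein of the ciliary base, differed by 1.73 ± 0.25 (SE, n = 3 each, adjusted p = 0.00117), and IFT74, of ciliary transport, by 1.55 ± 0.16 (SE, n = 3 each, adjusted p = 2.04e-04), while IFT20 was lower by -0.44 ± 0.10 (SE, n = 3 each, adjusted p = 0.011). CEP290 read 8.23, 8.21 and 8.94 with ΔNp63α, against 6.24, 7.07 and 6.87 with TAp63γ. Within each isoform it was highest on the array with the widest gap between the actin control probe sets (0.231 and 0.136). STAG2, SMC6 and IFT74 were highest on the same arrays, and NCAPH2 and IFT20 on neither. RAD50 read 10.02, 9.89 and 10.01 with ΔNp63α, against 8.64, 8.75 and 8.51 with TAp63γ. It was highest on replicate 1 of ΔNp63α, where the gap was 0.123, and on replicate 2 of TAp63γ, where the gap was 0.136. The part of RNA quality in the levels of these groups was not tested.

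Tubulins were lower with ΔNp63α for 7 of 16 measured genes and higher for 1. TUBB2A, a beta tubulin, read 10.07, 9.98 and 10.03 with ΔNp63α, against 11.91, 12.03 and 12.01 with TAp63γ and 8.34, 8.25 and 8.33 with the vector. The vector was lowest and TAp63γ highest, with a difference of -1.95 ± 0.08 (SE, n = 3 each, adjusted p = 2.11e-06). TUBA4A, an alpha tubulin, differed by -2.02 ± 0.11 (SE, n = 3 each, adjusted p = 7.61e-06), and TUBA1B by -0.06 ± 0.08 (SE, n = 3 each, adjusted p = 0.651). Pregnancy-specific glycoproteins, secreted proteins of the placenta, were lower with ΔNp63α for 6 of 9 and higher for 0, with medians over the vector of 0.06 with ΔNp63α and 1.12 with TAp63γ. PSG4 read 6.71, 6.40 and 6.55 with ΔNp63α, against 8.998, 8.75 and 8.75 with TAp63γ and 6.31, 6.12 and 6.50 with the vector, a difference of -2.28 ± 0.12 (SE, n = 3 each, adjusted p = 5.77e-06). Tubulins and pregnancy-specific glycoproteins are families of close copies, so signal may be shared. TP73, the p53 family member p73, read 5.96, 5.88 and 5.79 with ΔNp63α, against 8.12, 7.48 and 7.71 with TAp63γ and 5.97, 5.96 and 5.94 with the vector, a difference of -1.89 ± 0.15 (SE, n = 3 each, adjusted p = 5.84e-05). PIDD1, a scaffold of caspase 2 that p53 induces, differed by -2.23 ± 0.12 (SE, n = 3 each, adjusted p = 6.85e-06), and DRAM1, an autophagy gene that p53 induces, by -1.14 ± 0.11 (SE, n = 3 each, adjusted p = 1.32e-04).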
